A study of Mus musculus with 17 samples.

Results

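The question here is whether the drug AEOL 10150 alters the transcript response of mouse brain to ischemia. It was addressed with the 12 pooled arrays of a series of 17 arrays, taken by their titles as a factorial of 4 groups with 3 pools each. Treated ischemic pools came from mice with 1 h of ischemia in the territory of the middle cerebral artery, intravenous AEOL 10150 and 6 h of reperfusion. Drug control pools came from uninjured mice 6 h after AEOL 10150. Ischemic pools came from mice with the same ischemia and reperfusion and no drug named in the label. Control pools came from uninjured mice 6 h after saline. Every array carried RNA pooled from 6 brains, and grey and white matter of that arterial territory were dissected as 1 sample. The other 5 arrays of the series, each of 1 treated ischemic brain, did not enter the factorial. No dose, strain, age or sex is given in the labels, and it is not stated whether untreated ischemic mice received saline.

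For each probe set, a short set of oligonucleotides that reports 1 transcript, the response to ischemia was taken as a log2 difference. With the drug it was treated ischemic minus drug control pools, and without the drug it was ischemic minus control pools. The response with the drug minus the response without it is the interaction: a negative value is a smaller rise, or a larger fall, in the presence of the drug. Because the interaction also equals the drug effect in ischemic pools minus the drug effect in uninjured pools, each difference was traced to the arm in which the drug groups differed more.

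AEOL 10150 is a manganese porphyrin that removes superoxide and other reactive oxygen species catalytically. When blood returns to ischemic brain, neurons, glia and vessels switch on heat shock chaperones and immediate early transcription factors within minutes to hours. Chemokines and adhesion molecules follow, through NF-kB among other factors, and draw neutrophils into the tissue. Reactive oxygen species are among the signals known to act upstream of several of these programs.

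For 3 arrays the title and the description differ. The description of drug control pool 1 names saline, that of treated ischemic pool 1 names no drug, and that of treated ischemic pool 2 gives replicate number 1. Results were therefore also computed without the first 2 of these arrays and with groups taken from the descriptions. Treated ischemic pools 2 and 3 were deposited on another intensity scale than the other 10 pools. All arrays were brought to the same trimmed mean of 2500, but any effect of that difference and the drug effect in ischemic pools can be told apart only through treated ischemic pool 1. The actin 3'/5' ratio, a measure of RNA integrity, had a median of 1.34 in treated ischemic, 1.97 in drug control, 1.53 in ischemic and 1.33 in control pools, and its part in the results below was not tested. Markers of neurons, astrocytes, oligodendrocytes and microglia were above the floor on all 12 arrays wherever they were tested. The p-values concern the spread between pools, and the labels do not say how the brains were assigned to them.

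No probe set passed the test of the interaction. Of 10259 probe sets tested, 0 (0%) had an adjusted p under 0.05 in limma, and the smallest adjusted p was 0.155. At an unadjusted p under 0.05, 150 probe sets (1.46%) had a response that was lower with the drug and 63 (0.614%) a response that was higher with it. Together these 213 are a smaller share than the 0.05 that this threshold calls on average where no interaction exists. They are described below without being taken as altered responses. The median interaction over all probe sets was -0.0435 on the log2 scale, and 54.6% of the values were below 0. With 3 pools a group, the standard error of an interaction had a median of 0.498 on the log2 scale. To pass, an interaction had to be many times its standard error: Gfpt2, at -2.16 with a standard error of 0.33, did not. The 0 calls therefore do not exclude interactions of moderate size. For comparison, the response to ischemia averaged over both arms passed for 46 probe sets, of which 45 (0.439%) rose and 1 (0.00975%) fell. The gene that fell, Dazl, which encodes a germ cell RNA-binding protein, had an interaction of -0.04.

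The probe sets with the smaller p-values were seldom traced to 1 group. Among the 150 with a lower response, the drug effect was mainly in the ischemic pools for 18, mainly in the uninjured pools for 41 and of similar size in both arms for 91. Here "mainly" means at least 2 times the size of the drug effect in the other arm. In 146 of the 150 the drug effect had opposite signs in the 2 arms, as it had in 5425 of all 10259 probe sets. In the 63 with a higher response the counts were 10, 22 and 31, with opposite signs in 58. Over all 10259 probe sets the same rule gave 2583 in the ischemic pools, 3710 in the uninjured pools and 3966 in both. The interaction is the difference of the 2 drug effects. Choosing probe sets for a large difference therefore favours opposite signs and effects in both arms. The excess of such probe sets over the share among all is a consequence of the choice and supports nothing. No single group stood apart from the other 3 in 124 of the 150 and 48 of the 63, against 7456 of all 10259. Where 1 group did among the 150, it was the control group in 11, the drug control group in 7, the ischemic group in 6 and the treated ischemic group in 2. Among the 63 it was the drug control group in 8, the control group in 4, the treated ischemic group in 2 and the ischemic group in 1.

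Gfpt2, the enzyme that starts hexosamine synthesis, had the smallest p among genes measured in every group. Its log2 intensities were 10.58, 10.36 and 9.70 in treated ischemic pools, 10.69, 10.90 and 10.52 in drug control pools, 10.10, 10.33 and 10.37 in ischemic pools, and 8.54, 8.68 and 8.56 in control pools. The control pools were low. Among the other groups, treated ischemic pools overlapped both drug control and ischemic pools, while every drug control pool lay above every ischemic pool. Thus Gfpt2 rose without the drug (3.19-fold, limma adjusted p = 0.0189) and was also raised by the drug in uninjured pools (adjusted p = 0.036), while its log2 difference with the drug was -0.49. The interaction was -2.16 (SE 0.33, 95% interval -2.90 to -1.43, adjusted p = 0.307), and it was -2.35 without the 2 arrays of disputed label. In the single treated brains the level ran from 9.28 to 9.69, with a median of 9.41.

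Aldh1a3, a retinaldehyde dehydrogenase that makes retinoic acid, had the smallest interaction p of all, 1.51e-05, with an adjusted p of 0.155. It was at the floor of 6.77 on all treated ischemic, drug control and control arrays, and at 8.34, 8.75 and 8.42 in ischemic pools. The ischemic pools alone therefore carried signal. Against every other group they were at least 3.31-fold higher. The probe set met the filter of 3 arrays above the floor through the ischemic pools alone, and groups wholly at the floor have no spread, so its p-values are given as a description and support nothing. Both arrays of disputed label lay at the floor, and so did the median of the single treated brains, the highest of which reached 8.21.

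Ccna2, the S-phase cyclin A2, had a similar layout. It was at the floor in all treated ischemic pools, at 7.74, 6.77 and 6.77 in drug control pools, at 8.91, 9.23 and 8.49 in ischemic pools, and at 6.77, 7.54 and 6.77 in control pools. Only the ischemic pools lay clear of the others, with an interaction of -2.17 (SE 0.45, adjusted p = 1). Ccna2 met the filter only through these pools, and the treated ischemic pools have no spread. Its SE and p-value are therefore a description and support nothing. Rrm2, the inducible subunit of ribonucleotide reductase and another S-phase gene, was measured in every group, and its interaction of -1.66 (SE 0.57) was also traced to the ischemic arm. Mcm4, a helicase subunit of DNA replication, went the other way at 1.37 (SE 0.61), and so did Ccne1, cyclin E1, the highest member at 2.09 (SE 2.15). The list of 34 cell cycle genes as a whole had 21 values below 0 and 13 above, with a median of -0.17.

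Other low interactions had different layouts of the groups. Esr1, estrogen receptor alpha, was at 6.77, 7.04 and 6.77 in treated ischemic pools, 8.36, 7.76 and 8.03 in drug control pools, 6.77, 6.77 and 7.06 in ischemic pools, and at the floor in all control pools. The drug control pools were the high group, and the interaction was -1.28 (SE 0.28, adjusted p = 1), against -0.22 (SE 0.63) in another probe set for Esr1. The first probe set met the filter only through the drug control pools, and the control pools have no spread. Its SE and p-value are therefore a description and support nothing. Hgf, hepatocyte growth factor, showed a crossed layout instead: 6.77 on every treated ischemic array, 7.60, 7.08 and 7.90 in drug control pools, 7.45, 7.33 and 8.08 in ischemic pools, and 6.77, 6.83 and 6.77 in control pools. Each condition alone, drug or ischemia, went with a higher level than both or neither. Its interaction was -1.58 (SE 0.36, adjusted p = 1). The treated ischemic pools have no spread, so the SE and p-value of Hgf are a description only. Myog, a muscle transcription factor that was low in control pools, had -4.06 (SE 0.93, adjusted p = 1).

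Further genes with small p-values and a lower response had at least 2 arrays above the floor in every group. Ficd, which modifies the chaperone BiP, had an interaction of -1.23 (SE 0.31), and Laptm5, a lysosomal protein of blood-derived cells and microglia, one of -1.39 (SE 0.39). Prkd2 (protein kinase D2) and Krt33b (a hair keratin) had -1.93 and -1.35, and in both the control pools stood apart from the other groups by their low mean. Hinfp, Zfp91, Cnih4 and Tmbim1 ran from -2.23 to -1.01. None of them passed, with an adjusted p of 1 in limma for each. Second probe sets gave other values: -0.42 for Laptm5, -0.20 for Prkd2, 0.31 for Hinfp, -0.04 for Zfp91 and 0.84 for Tmbim1. The 30 interactions followed outside the ischemia-induced set kept their direction without the 2 arrays of disputed label. They also kept it with groups from the descriptions. All 30 were chosen for small p-values on the same arrays, most or all of which these settings reuse. A kept direction was therefore likely from the start and does not settle the labels.

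Acan was among the genes with the smallest p-values and a higher interaction. It encodes the aggrecan of perineuronal nets and was at 9.56, 9.61 and 9.04 in treated ischemic pools, 8.63, 6.77 and 7.61 in drug control pools, 7.83, 8.80 and 8.59 in ischemic pools, and 8.95, 8.73 and 9.36 in control pools. Treated ischemic and drug control pools did not overlap, whereas ischemic and control pools did, and the interaction was 2.34 (SE 0.62, adjusted p = 1). Lama4, a laminin chain of vessel basement membranes, had an interaction of 2.54 (SE 0.71), and Fabp7, a fatty acid binding protein of astrocytes, one of 1.17 (SE 0.39). A dimmer probe set for Lama4, at the floor in all treated ischemic pools, gave -1.41 (SE 0.64). In Acan, Lama4 and Fabp7 the drug effect was above 0 in ischemic pools and below 0 in uninjured pools: 1.15 and -1.39 for Lama4, and 0.54 and -0.63 for Fabp7, and -1.34 in uninjured pools for Acan. Zcchc3, Tarbp2 and Clp1 were further genes with this direction, with interactions of 1.44, 1.63 and 0.99.

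Gpx3, a secreted glutathione peroxidase, crossed over without overlap. It was at 11.69, 11.60 and 12.06 in treated ischemic pools, 11.08, 11.15 and 11.40 in drug control pools, 11.13, 10.89 and 11.46 in ischemic pools, and 11.61, 11.70 and 11.48 in control pools. Every treated ischemic pool was above every drug control pool, and every ischemic pool was below every control pool. The interaction was 1.01 (SE 0.29, 95% interval 0.37 to 1.66, adjusted p = 1), and 0.99 without the 2 arrays of disputed label. Such crossing, in either direction, was found for 11 of 10259 probe sets (0.107%). Among the named genes Tbp, the TATA-binding protein, and Vps45, a regulator of endosomal membrane fusion, crossed the same way, with interactions of 1.10 and 2.38. A second probe set for Vps45 gave 0.90 (SE 1.61).

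**Figure D1:**
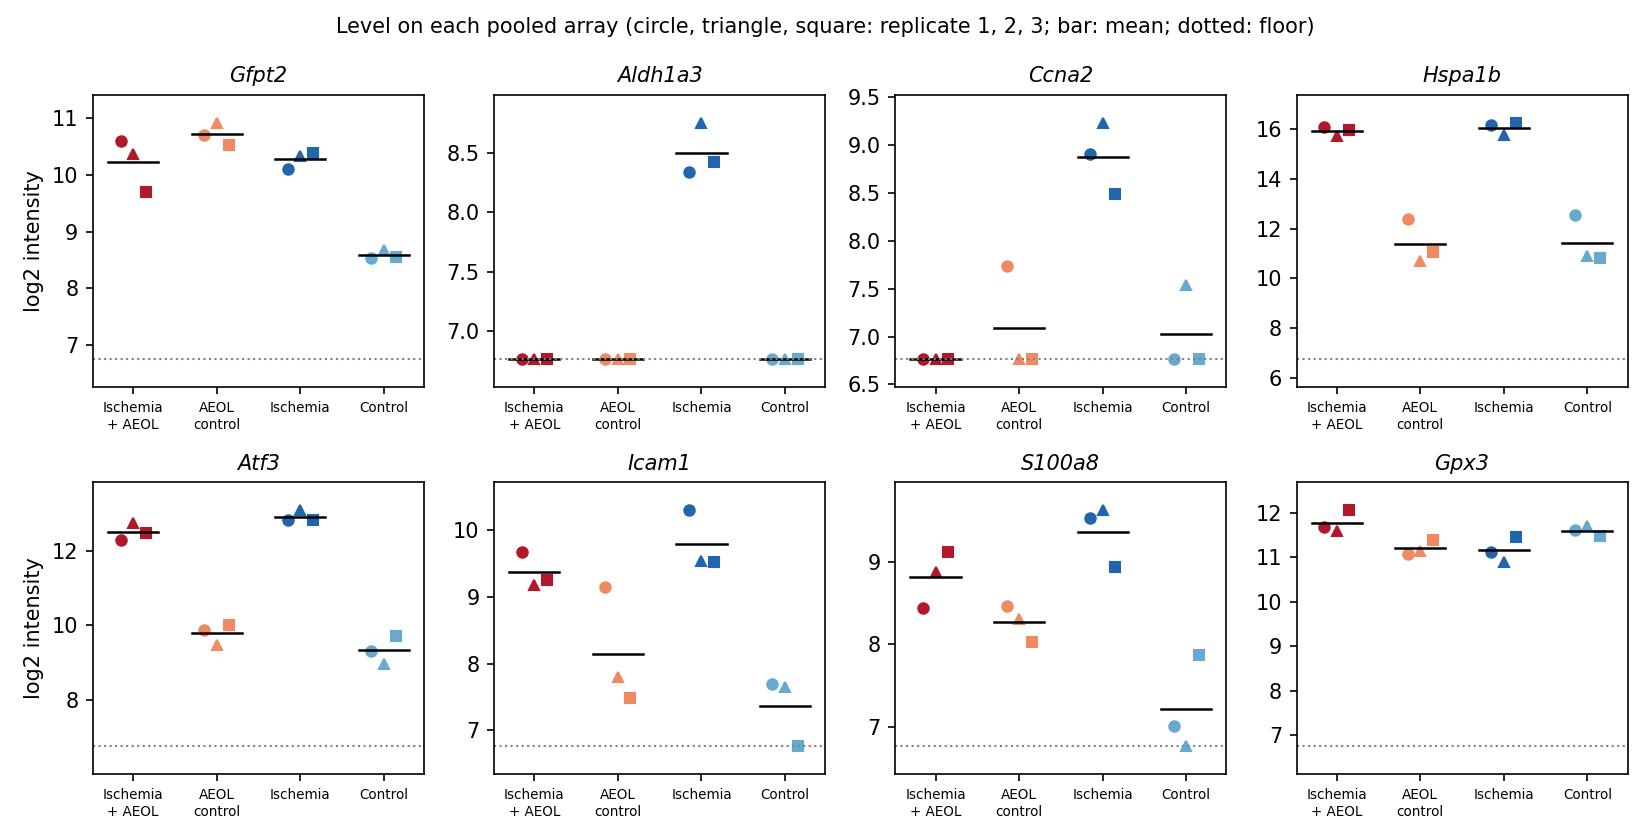
Log2 intensity (y axis) on each pooled array for 8 genes, in the order treated ischemic, drug control, ischemic and control pools (x axis). Symbols are replicates 1 to 3, bars are group means and the dotted line is the floor of 6.77; y axes differ between panels. Gfpt2 was low only in control pools, Aldh1a3 and Ccna2 were high only in ischemic pools, and Hspa1b overlapped between both ischemic groups.

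The genes that ischemia induced over both arms bear most directly on the question. They were the 45 probe sets that rose in the averaged response. In a balanced design this choice does not by itself favour either sign of the interaction. Aldh1a3 and a probe set for Gstm5 are exceptions. In Aldh1a3, signal in the ischemic pools alone fixes the sign of both values. In Gstm5, the drug control pools, all at the floor and alone low, push both values upward. Of the 45, 44 stood for 41 genes and 1 had no single gene name. Their median response was 1.47 on the log2 scale with the drug, or 2.77-fold, and 1.88 without it, or 3.69-fold. The response was smaller with the drug for 36 (80%) and larger for 9, with a median interaction of -0.27 against -0.0435 over all probe sets. None passed as an interaction, 7 had an unadjusted p under 0.05, and the 95% interval included 0 for 38. Aldh1a3, whose values support nothing, is counted among the 36 and among the 7. The Gstm5 probe set, a description only, is counted among the 9 and among the 7.

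By arm, the lower median lay in the ischemic pools. The median drug effect over the 45 was -0.21 in ischemic pools, with 38 of 45 values below 0, and 0.048 in uninjured pools, with 26 above 0. After each probe set was centred on its own mean, the median of the 45 on an array was 0.68, 0.70 and 0.74 in treated ischemic pools, -0.65, -0.75 and -0.84 in drug control pools, 0.92, 0.88 and 1.03 in ischemic pools, and -0.71, -0.82 and -0.87 in control pools. Treated ischemic pools were thus all below the ischemic pools, whereas drug control and control pools overlapped. Counted for each probe set, 13 differences were mainly in the ischemic arm, 13 mainly in the uninjured arm and 19 in both.

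The size of this median depended on the control pools and on the disputed labels. It was -0.16 (29 of 45 below 0) without the 2 arrays of disputed label and -0.054 (26 of 45) with groups from the descriptions. Leaving out control pool 3 gave -0.11 (26 of 45), and leaving out control pool 1 gave -0.46 (36 of 45). In all 24 alternatives it stayed below 0, where values as deposited and values scaled to the median are taken, here and below, relative to the median of all probe sets.

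**Figure D2:**
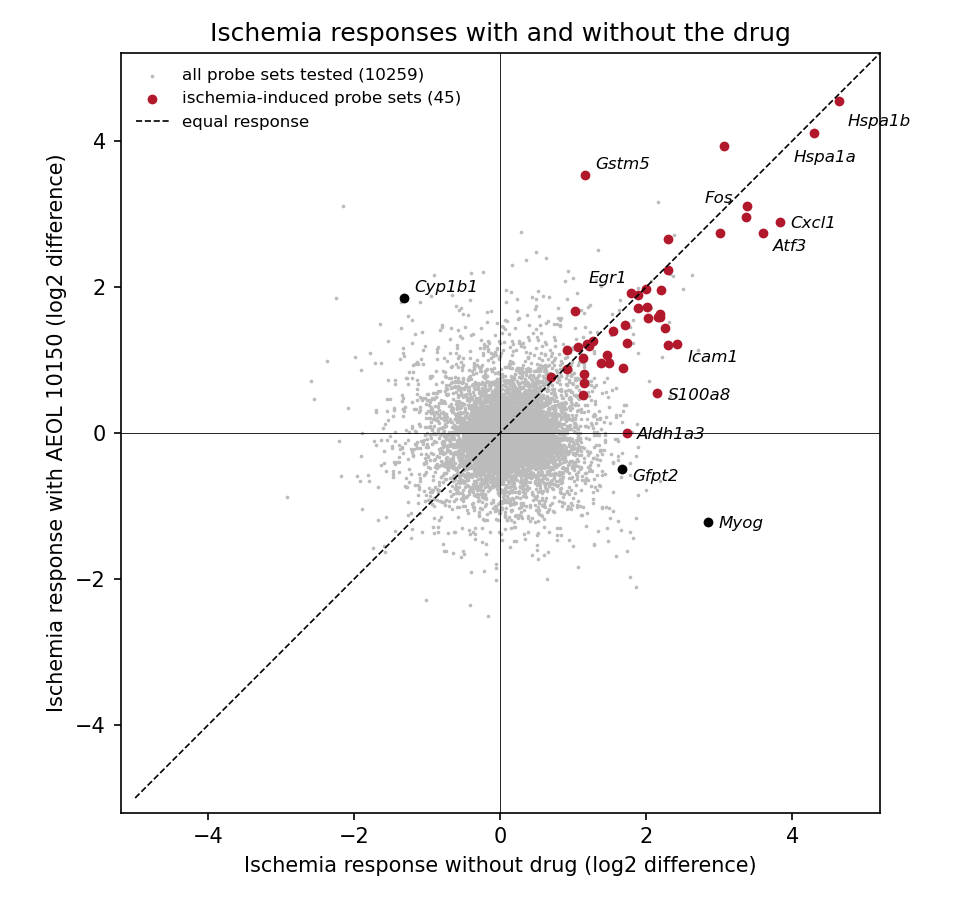
Response to ischemia with AEOL 10150 (treated ischemic minus drug control, y axis) against the response without it (ischemic minus control, x axis), both as log2 differences, for 10259 probe sets in grey and the 45 ischemia-induced ones in red; the dashed line marks equal responses and other named genes are black. Of the 45 red points, 36 lie below the line, most of them close to it.

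Among heat shock genes, 5 of 28 rose in the averaged response and none passed as an interaction. Hspa1b, the inducible Hsp70, was at 16.11, 15.75 and 15.96 in treated ischemic pools, 12.40, 10.72 and 11.08 in drug control pools, 16.16, 15.79 and 16.25 in ischemic pools, and 12.55, 10.90 and 10.82 in control pools. Both ischemic groups overlapped each other and so did both uninjured groups. It rose 23.3-fold with the drug (adjusted p = 0.00931) and 25-fold without it (adjusted p = 0.00612), and the interaction was -0.10 (SE 0.72, 95% interval -1.69 to 1.49). Its neighbour and near-identical copy Hspa1a rose 17.3-fold with and 19.6-fold without the drug, though probes for these copies may share transcripts. Hsph1, an Hsp110 nucleotide exchange factor, was measured more tightly, with an interaction of -0.03 and a 95% interval of -0.51 to 0.45. The cochaperones Dnajb1 and Bag3 had -0.25 and -0.18.

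As a list, 28 heat shock proteins and cochaperones had a median response of 0.29 with the drug and 0.29 without it. The interaction was below 0 for 15 and above 0 for 13, with a median of -0.024, which turned positive without the 2 arrays of disputed label (0.059), with groups from the descriptions (0.075) and when arrays were scaled to the median of values above 0. None of the 28 had an unadjusted p under 0.05. The lowest and highest members were Hspb2 (-0.56) and Dnajb5 (0.61).

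Immediate early transcription factors mostly had interactions below 0. Of 22 members 18 had an interaction below 0, and the median was -0.39, against -0.025 over all 7280 genes, of which 53% were below 0. The median response was 0.84 with the drug and 1.24 without it, and the median drug effect was -0.20 in ischemic and 0.089 in uninjured pools. After each gene was centred on its own mean, the list's array medians were 0.648, 0.389 and 0.406 in treated ischemic pools 1 to 3. In ischemic pools they were 0.669, 0.681 and 0.855. Treated ischemic pool 1, whose description names no drug, thus lay near the ischemic pools. Pools 2 and 3, deposited on another scale, were lower. Over 24 alternatives the median interaction ran from -0.39 to -0.091, always below 0, with the smallest size when the deposited scale was a block. In that setting the level of the treated ischemic group rests on pool 1 alone, an array of disputed label. In the averaged response 10 of the 22 rose, and in the interaction 0 passed.

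Within that list the members differed. Atf3, a stress-induced repressor, was at 12.31, 12.76 and 12.50 in treated ischemic pools, 9.88, 9.47 and 10.01 in drug control pools, 12.83, 13.10 and 12.84 in ischemic pools, and 9.32, 8.97 and 9.71 in control pools. All treated ischemic pools were below all ischemic pools, and the uninjured groups overlapped. The rise was 6.67-fold with the drug (adjusted p = 0.00365) and 12-fold without it (adjusted p = 0.000266). Its interaction was -0.85 (SE 0.34, unadjusted p = 0.0298, adjusted p = 1), but a second, dimmer probe set for Atf3 gave 0.35 (SE 0.67). Fos, the prototype of the family, had an interaction of -0.42 (SE 0.56), Fosb -0.60 (SE 0.42) and Fosl2 -1.10 (SE 0.54), while Fosl1, at the floor on 4 of 6 uninjured arrays, had -1.36 (SE 0.90).

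Other members of the same class had responses that lay close together. Egr1 was at 14.83, 14.69 and 14.69 in treated ischemic pools, 12.64, 13.20 and 12.75 in drug control pools, 14.80, 14.73 and 14.99 in ischemic pools, and 13.11, 13.03 and 12.72 in control pools. Ischemic groups and uninjured groups each overlapped, and Egr1 rose 3.67-fold with the drug (adjusted p = 0.00786) and 3.7-fold without it (adjusted p = 0.00559). The interaction was -0.01 (SE 0.28, 95% interval -0.64 to 0.61). Jun had -0.02 (SE 0.31), Junb -0.24 (SE 0.41), and the orphan nuclear receptor Nr4a1 0.13 (SE 0.34).

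The list of 23 activity-induced effectors and feedback regulators had 16 values below 0 and 7 above, with a median of -0.20. This median turned to 0.050 with the deposited scale as a block, where the treated ischemic level rests on the disputed pool 1 alone. Each response taken alone had the same median of 0.55. Zfp36, which destabilises cytokine mRNAs, was the lowest member at -0.95 (SE 0.39), and its difference lay in uninjured pools, where the drug effect was 0.78. Gadd45b, induced by growth arrest and DNA damage, had 2 probe sets that went opposite ways, 0.86 (SE 1.03) and -0.28 (SE 0.61).

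**Figure D3:**
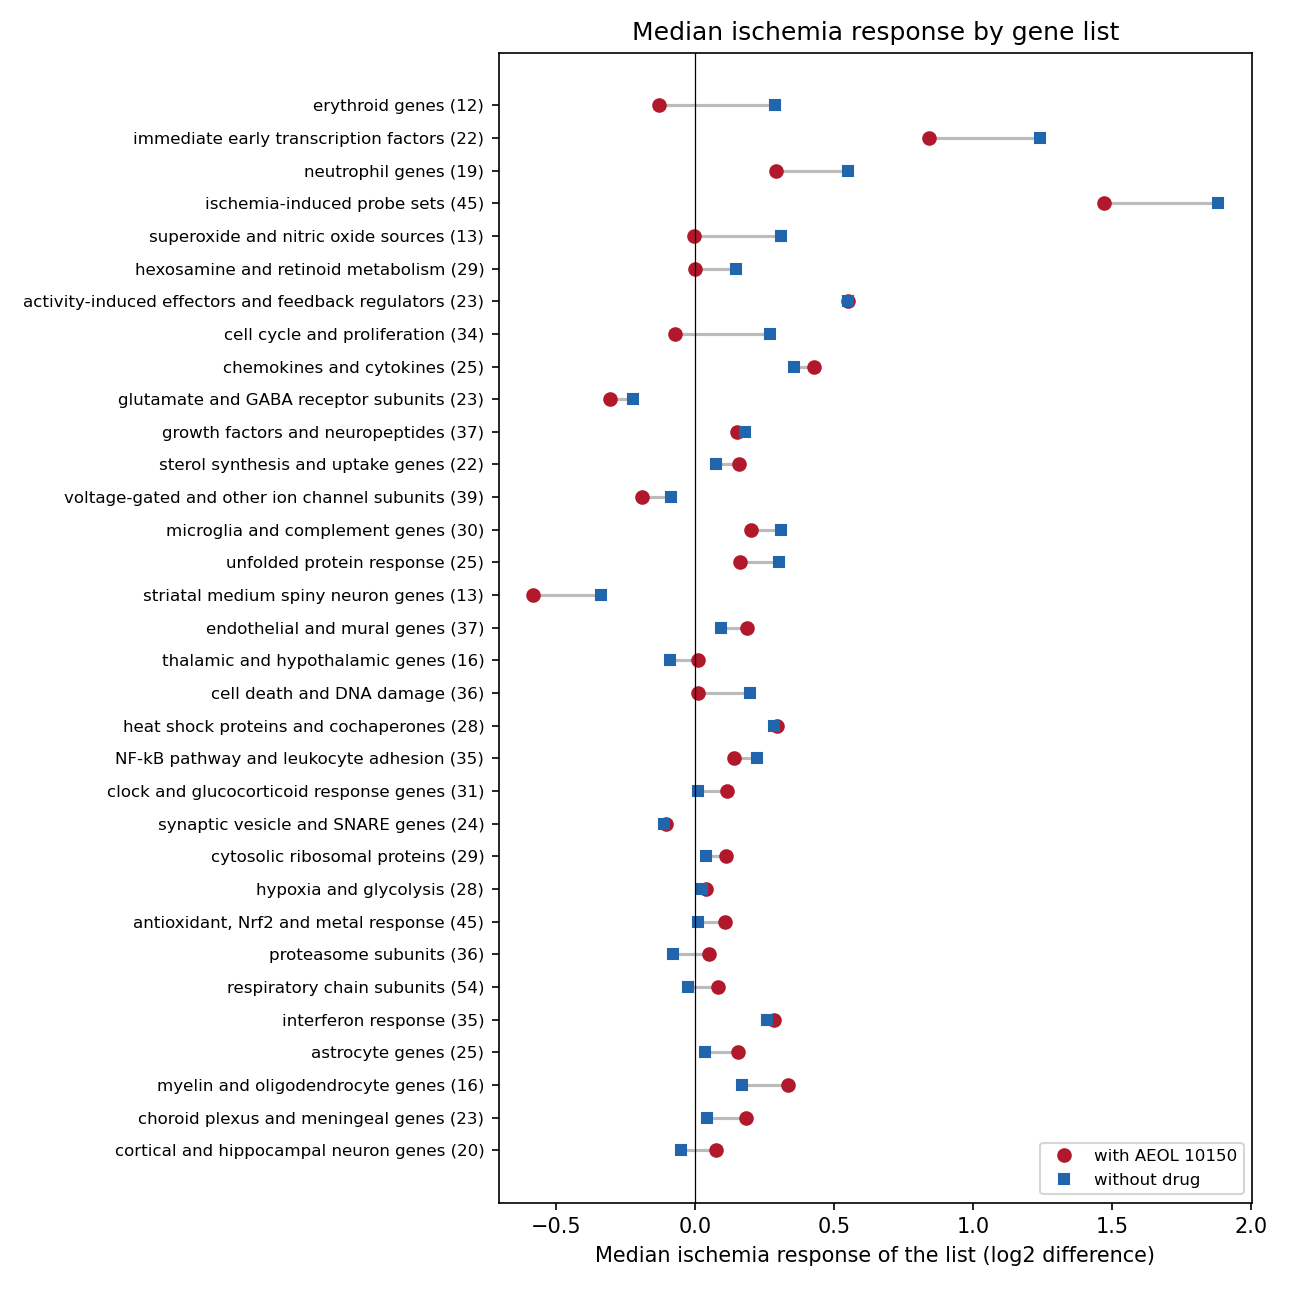
Median ischemia response of each gene list (x axis, log2 difference) with AEOL 10150 (red circles) and without it (blue squares); the number of genes tested is in brackets, and lists are ordered by median interaction, with erythroid genes, the lowest, at the top. Immediate early transcription factors sit at 0.84 with the drug and 1.24 without it, and heat shock genes at 0.29 with and without it.

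Chemokine interactions had a wide spread on both sides of 0. Cxcl1, a neutrophil-attracting chemokine, was at 11.18, 11.67 and 10.61 in treated ischemic pools, 9.14, 6.77 and 8.86 in drug control pools, 11.76, 12.33 and 11.66 in ischemic pools, and 8.96, 8.53 and 6.77 in control pools. Treated ischemic and ischemic pools overlapped only at 11.67 and 11.66, and uninjured pools overlapped widely. The interaction was -0.94 with a standard error of 0.96, a second probe set for Cxcl1 gave 0.01, and the 95% interval of the first ran from -3.08 to 1.21. Ccl2, which attracts monocytes, had -0.27 (SE 0.83), and Ccl3 -0.58 (SE 0.42) with equal levels in both ischemic groups.

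Cxcl2 and Il6, further inflammatory mediators, had interactions of -1.57 (SE 0.74) and -1.18 (SE 0.73) with uninjured pools mostly at the floor. Il6 was at 8.40, 8.26 and 6.77 in treated ischemic pools and 9.91, 9.20 and 7.84 in ischemic pools, and at the floor on all 6 uninjured arrays. Its ischemic groups overlapped in range. Ccl4 went the other way at 2.47 (SE 1.30), since it was high in control pools and at the floor in drug control pools 2 and 3. Over the 25 chemokines and cytokines tested, 16 (64%, against 53% over all genes) had values below 0 and 9 above, with a median of -0.16 and 0 at an unadjusted p under 0.05. That median was 0.044 on the values as deposited, 0.083 with groups from the descriptions and 0.036 without control pool 2, and the list's median response was 0.43 with the drug against 0.36 without it.

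Icam1, the endothelial receptor that neutrophils use to adhere, was at 9.67, 9.18 and 9.25 in treated ischemic pools, 9.15, 7.80 and 7.48 in drug control pools, 10.30, 9.54 and 9.52 in ischemic pools, and 7.69, 7.65 and 6.77 in control pools. Each pair of groups that differ by the drug overlapped. The values came to a response of 1.22 with the drug and 2.42 without it and an interaction of -1.20 (SE 0.62, 95% interval -2.57 to 0.18). Nfkbiz, a nuclear modulator of NF-kB, had -0.79 (SE 0.34, unadjusted p = 0.0441, adjusted p = 1), and Tnfaip6, a hyaluronan-binding protein induced by inflammation, -0.82 (SE 0.50). Socs3, a feedback inhibitor of cytokine signalling, had -0.50 (SE 0.32) in the probe set that rose and 0.52 (SE 0.53) in a brighter one, and Il1a -0.30 (SE 0.64). The wider list of 35 NF-kB and adhesion genes was centred on 0, with 17 values below and 18 above.

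Promoter sequences are shown for Hspa1b, with an interaction near 0, for Cxcl1 and Icam1, induced genes with lower values in the presence of the drug, and for Gfpt2, with the smallest p of a gene measured in every group. Each is the 250 bases before the RefSeq gene start in GRCm38.p6, 5' to 3' on the gene's strand. They lie at chr17:34959239-34959488 (minus strand), chr5:90890995-90891244 (plus), chr9:21015690-21015939 (plus) and chr11:49793905-49794154 (plus). Capitals mark matches, on either strand, to a heat shock element (GAANNTTC), an AP-1 site (TGANTCA) or a kB-like site (GGNNNTTCC).
Hspa1b: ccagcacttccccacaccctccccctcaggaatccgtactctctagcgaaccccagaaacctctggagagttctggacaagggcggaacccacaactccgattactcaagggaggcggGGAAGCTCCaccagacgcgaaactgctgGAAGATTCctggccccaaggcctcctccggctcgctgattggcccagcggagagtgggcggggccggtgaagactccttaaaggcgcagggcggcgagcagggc
Cxcl1: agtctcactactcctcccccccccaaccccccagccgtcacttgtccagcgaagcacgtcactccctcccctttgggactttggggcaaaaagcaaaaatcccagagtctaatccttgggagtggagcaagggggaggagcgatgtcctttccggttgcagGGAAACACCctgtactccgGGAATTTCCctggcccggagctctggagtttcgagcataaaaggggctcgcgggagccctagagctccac
Icam1: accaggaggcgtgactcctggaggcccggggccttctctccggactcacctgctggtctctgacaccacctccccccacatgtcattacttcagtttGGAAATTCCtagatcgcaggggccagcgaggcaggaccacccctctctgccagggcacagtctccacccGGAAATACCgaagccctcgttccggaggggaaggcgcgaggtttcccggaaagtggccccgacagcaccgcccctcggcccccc
Gfpt2: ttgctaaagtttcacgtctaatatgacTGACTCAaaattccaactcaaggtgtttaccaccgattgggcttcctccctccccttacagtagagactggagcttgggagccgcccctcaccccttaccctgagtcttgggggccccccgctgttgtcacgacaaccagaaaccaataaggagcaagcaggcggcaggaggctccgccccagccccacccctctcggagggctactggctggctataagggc
Hspa1b holds a heat shock element and a kB-like match, Cxcl1 and Icam1 hold 2 kB-like matches each, and Gfpt2 holds an AP-1 match.

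Of the 41 induced genes 32 were in the promoter table. A heat shock element was found in 3 (9.38%, against 6.78% of 27025 promoters), a cyclic AMP response element (TGACGTCA) in 1 (3.12%, against 1.62%), an AP-1 site in 5 (15.6%, against 6.87%) and a kB-like site in 6 (18.8%, against 15.6%). Both strands were searched, and matches to different motifs may overlap. The median interaction was -0.14 in the 6 genes with a kB-like match and -0.29 in those without, and -0.30 with and -0.25 without an AP-1 match.

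Neutrophil transcripts had mostly negative interactions that lay in the uninjured arm. S100a8, a calcium-binding protein abundant in neutrophils, was at 8.44, 8.88 and 9.12 in treated ischemic pools, 8.47, 8.31 and 8.03 in drug control pools, 9.54, 9.63 and 8.94 in ischemic pools, and 7.01, 6.77 and 7.87 in control pools. Drug control pools lay above all control pools, and treated ischemic pools overlapped both drug control and ischemic pools. It rose 4.45-fold without the drug (adjusted p = 0.0255) and had a 1.46-fold difference with it (adjusted p = 1). The interaction was -1.61 (SE 0.45, 95% interval -2.62 to -0.60, unadjusted p = 0.00511, adjusted p = 1), made up of a drug effect of -0.56 in ischemic and 1.05 in uninjured pools.

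Of the 19 neutrophil genes tested, 15 had interactions below 0 and 4 above, with a median of -0.36, and for 12 the difference lay mainly in uninjured pools. The median drug effect was -0.026 in ischemic and 0.36 in uninjured pools. The median interaction of the list was -0.79 without control pool 3, -0.076 without control pool 2, -0.11 without drug control pool 3 and 0.017 without ischemic pool 3, which changed its sign. The 4 defining markers (S100a8, S100a9, Mpo and Ltf) were summed, though only 1 of them was above the floor on all 12 arrays. The summed level was 10.16 to 11.32 in treated ischemic and 10.09 to 11.20 in drug control pools. It was 10.84 to 11.26 in ischemic and 9.27 to 10.38 in control pools, with an interaction of -1.13. Values at the floor enter this sum. In bulk tissue, fewer cells of a type and less RNA per cell cannot be told apart. The list's array medians varied by 0.44 (SD) between pools of a group, more than for the 45 induced probe sets (0.076).

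Erythroid transcripts, a measure of blood left in the vessels, also had a low median interaction, -0.47, with 10 of 12 values below 0. Hba-a1, the adult alpha-globin, was at 13.00, 13.12 and 11.58 in treated ischemic pools, 11.44, 12.10 and 10.97 in drug control pools, 13.41, 13.34 and 12.95 in ischemic pools, and 11.99, 12.03 and 11.39 in control pools. Globin was higher on ischemic than on uninjured arrays apart from treated ischemic pool 3. Its interaction was -0.37 (SE 0.60), so blood-derived transcripts had values of the same sign as the neutrophil list, and the part of blood content in either result was not tested.

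Antioxidant genes, the class closest to the drug's known chemistry, showed no common shift. Of 45 antioxidant, Nrf2-controlled and metal-response genes, 27 had interactions above 0 and 18 below, with a median of 0.061. It turned to -0.010 with the deposited scale as a block, where the treated ischemic level rests on the disputed pool 1 alone. The superoxide dismutases Sod1, Sod2 and Sod3 had interactions of -0.01 (SE 0.38), -0.12 (SE 0.33) and -0.02 (SE 0.49), and catalase (Cat) had 0.44 (SE 0.69). Hmox1, the heme oxygenase induced by oxidative stress, had -0.64 (SE 0.55) and glutathione reductase Gsr 0.72 (SE 0.41). The metallothioneins Mt1 and Mt2, bright on every array, had 0.11 (SE 0.26) and 0.05 (SE 0.23). Apart from Gpx3, none of the brightest probe sets of these genes reached an unadjusted p under 0.05.

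A dim probe set for Gstm5, a glutathione S-transferase, had the highest interaction of the induced set, 2.38 (SE 0.82). It was at 10.71, 10.45 and 9.75 in treated ischemic pools, at the floor in all drug control pools, at 10.46, 10.52 and 11.61 in ischemic pools, and at 9.77, 8.34 and 11.01 in control pools. The drug control pools were the low group. They have no spread, so the SE is a description only. The brightest probe set of the gene gave 0.03 (SE 0.23), and members of this family share sequence, so the value belongs to the probe set. Cyp1b1, a cytochrome that metabolises steroids and xenobiotics, likewise had an interaction of 3.17 (SE 0.79, adjusted p = 1) with all drug control pools at the floor.

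Sources of superoxide and nitric oxide had few measured members. Of 13 tested, 7 were below 0 and 6 above, with Nos2, the inducible nitric oxide synthase, the lowest member (SE 0.59). The hexosamine and retinoid list, which was drawn up because Gfpt2 and Aldh1a3 were already known, had 22 of 29 values below 0 and a median of -0.21. Growth factors and neuropeptides had 23 of 37 below 0, with a median of -0.13 and Ctf1 (cardiotrophin 1) lowest at -2.24 (SE 1.29), against 0.66 (SE 0.62) in its other probe set.

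Lists of resident brain cells and of basic metabolism had medians near 0, and mostly on the positive side. Astrocyte genes had 19 of 25 values above 0 (median 0.14), myelin genes 12 of 16 (median 0.15), cortical and hippocampal neuron genes 14 of 20 (median 0.23), choroid plexus and meningeal genes 15 of 23 (median 0.18) and respiratory chain subunits 36 of 54 (median 0.10). In the choroid plexus list the drug effect had a median of 0.054 in ischemic and -0.28 in uninjured pools, and 8 genes were mainly in the uninjured arm against 4 in the ischemic arm. Striatal medium spiny neuron genes had lower levels in ischemic tissue in both arms, with a median response of -0.58 with the drug and -0.34 without it, for all 13 genes in each arm, and a median interaction of -0.057. Microglial genes divided evenly, 15 below and 15 above 0.

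Interferon-response genes had 21 of 35 values above 0 with a median of 0.12, which turned to -0.13 without ischemic pool 3. Proteasome subunits, cytosolic ribosomal proteins, hypoxia and glycolysis genes, clock genes and synaptic vesicle genes had medians from 0.017 to 0.082. Unfolded protein response, cell death, endothelial and sterol genes had medians from -0.11 to -0.030, glutamate and GABA receptors -0.16, ion channels -0.092, and thalamic genes -0.036. Across all 33 lists, 0 members passed the interaction test.

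**Figure D4:**
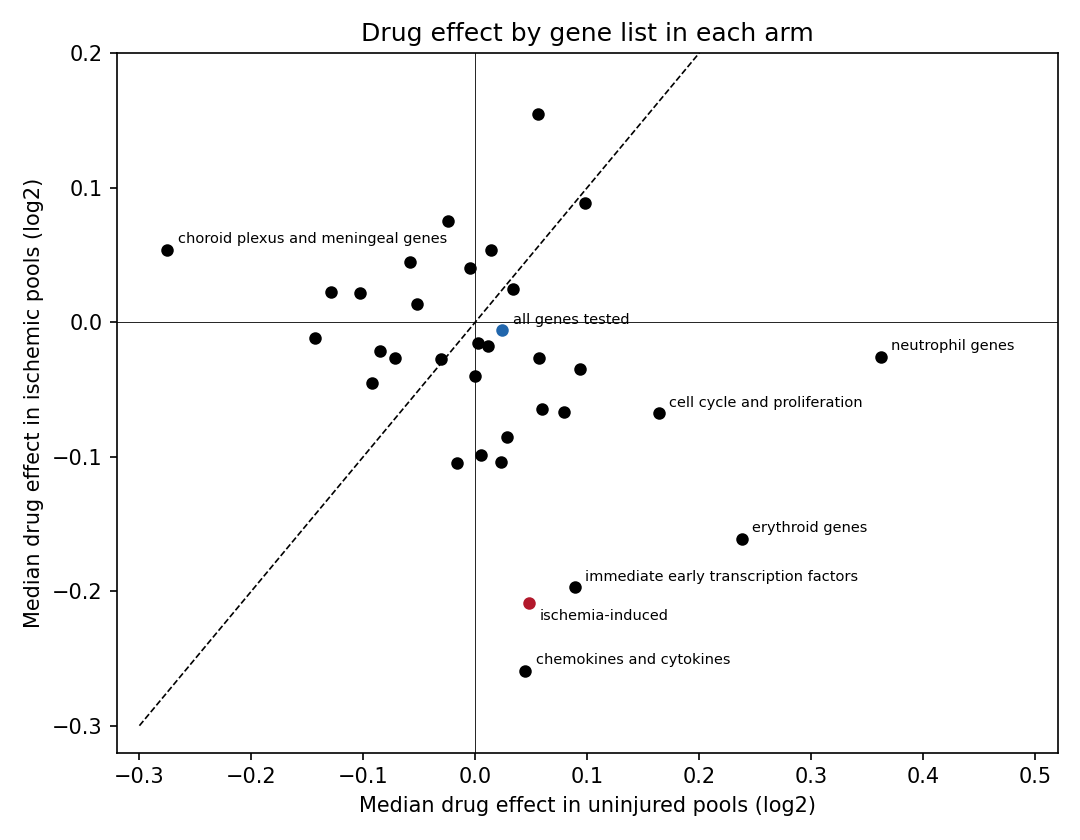
Median drug effect of each gene list in ischemic pools (treated ischemic minus ischemic, y axis) and in uninjured pools (drug control minus control, x axis), as log2 differences; the dashed line marks equal effects, red is the ischemia-induced set and blue all genes. The induced set and the chemokines lie low on the y axis near 0 on the x axis, and the neutrophil genes lie far right at 0.36 with -0.026 on the y axis.

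**Figure D5:**
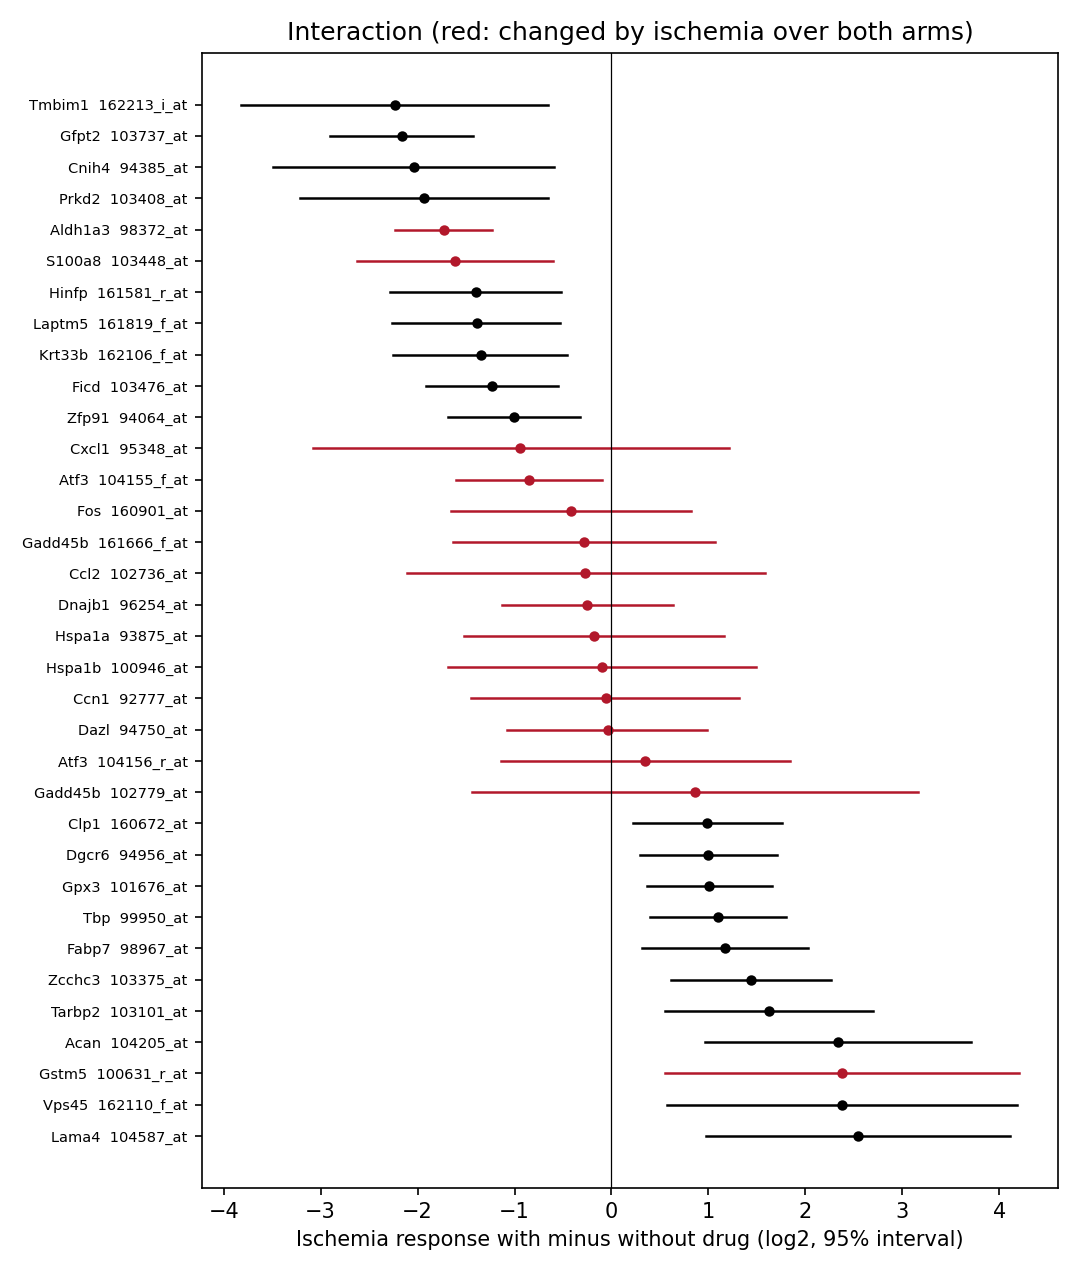
Interaction of drug and ischemia (x axis, log2) with its 95% interval for the genes with the smallest p-values in each direction and the strongest ischemia-responsive probe sets (y axis, probe sets; red marks those that passed in the averaged response). The intervals of Hspa1b and Fos include 0, and those of Aldh1a3 (-1.73), S100a8 (-1.61), Gstm5 (2.38) and the brighter Atf3 probe set (-0.85) do not. The Aldh1a3 interval is a description only, since every group but the ischemic pools was at the floor. So is the Gstm5 interval, since all drug control pools were at the floor.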

How the data were processed

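RNA of 12 pooled arrays was compared. The deposited values are intensities on a linear scale, 1 per probe set and array; neither label nor header names the image software or its scaling. Between 15.2% and 19.3% of an array's values were below 0. Here each array was multiplied to a 2 to 98% trimmed mean of 2500, any scaled value under 109.5, the 25th percentile of the pooled arrays, was raised to it, and the deposited intensities so scaled were put on the log2 scale (floor 6.77). A fold against a group at the floor is a lower bound. The 66 array controls were left out, and the test covered 10259 of 12488 probe sets, those exceeding the floor on 3 or more arrays. Of all probe sets 10855 had 1 gene symbol, 396 several and 1237 none in the platform annotation; 10839 symbols were updated through RefSeq gene numbers.

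A model of group means was run in limma 3.58.1 (R 4.3.3; 8 residual and 2.23 prior degrees of freedom), with two-sided p-values and Benjamini-Hochberg adjustment over probe sets within each contrast (threshold 0.05). The script was tested on simulated data. Arrays have no read depth, and their number limits the precision. Named genes were the 10 smallest interaction p-values in each direction with at least 2 arrays above the floor in every group. From the averaged response came the 12 largest rises and up to 5 largest falls that passed, of which only 1 fall existed. The extremes of each list were named too, and Aldh1a3 and Gfpt2 because earlier results of these data had named them. Other genes were named after their values were seen. For lists, a gene (7280 in all) was represented by its brightest probe set. The comparison, its members and the 33 lists were chosen with earlier results of these data known. Replicate numbers are shared by the groups, but deviations of equal numbers correlated from 0.332 to 0.571 among drug control, ischemic and control pools and from -0.335 to 0.401 where treated ischemic pools were involved. The numbers were therefore not taken as pairs over all 4 groups. Alternatives covered scaling, floor, filter, variance prior, labels, single brains, a replicate block, the deposited scale as a block and leaving out each array. With the deposited scale as a block, treated ischemic pool 1 alone sets the level of its group.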

Additional observations from a re-analysis of the deposited data

Results flagged for a closer look

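In 11 of 10259 probe sets (0.107%) the 2 responses went in opposite directions without overlap. Every ischemic pool lay on one side of every control pool, and every treated ischemic pool on the opposite side of every drug control pool. The share expected without any interaction was not computed, so the count is a description only. Some gaps were small: in Dram2 the lowest ischemic pool was at 9.73 and the highest control pool at 9.72. None of these differences passed the interaction test in limma (adjusted p of 0.543 for a probe set with no single gene name and 1 for the others). The response was upward without the drug and downward with it for 7. Their interactions were -3.27 for that probe set, -1.99 and -0.82 for 2 more without a single gene name, -1.58 for Hgf, -0.96 for the transcription factor E2f5, -0.73 for the neuronal calcium-binding protein Calb1 and -0.50 for Dram2. For 4 it was downward without and upward with the drug: 1.01 for Gpx3, 1.10 for Tbp, 1.40 for the laminin chain Lamb1 and 2.38 for Vps45. The unnamed probe set with the value of -3.27 was at 6.77, 7.49 and 6.77 in treated ischemic pools, 8.32, 8.75 and 9.03 in drug control pools, 8.42, 7.45 and 9.20 in ischemic pools and at the floor in all control pools. Calb1 was at 12.41, 12.50 and 11.80 in treated ischemic pools, 12.58, 12.74 and 12.59 in drug control pools, 12.81, 12.87 and 12.71 in ischemic pools, and 12.46, 12.33 and 12.61 in control pools. In the single treated brains the median was 12.24 for Gpx3, above all pools, and 12.04 for Calb1.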

How the results depend on the processing

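Interaction calls stayed at 0 in 22 of 24 alternatives. With no filter on low values 1 passed (Aldh1a3, adjusted p = 0.00391 in limma), and with the 5 single treated brains in place of the treated ischemic pools 10 passed, which share the other 9 arrays with the pooled comparison. At an unadjusted p under 0.05 the count of 213 ran from 110 to 1611, apart from the values as deposited, which gave 2286 lower and 4 higher. The averaged ischemia response, 46 calls, gave 0 on the values as deposited, 22 without the 2 arrays of disputed label, 19 with the deposited scale as a block and 87 with single brains, and from 30 (without ischemic pool 1) to 44 when 1 array was left out. The median interaction of the induced set, -0.267, was -0.0541 with groups from the descriptions, -0.165 without the 2 disputed arrays, -0.352 with single brains and from -0.455 to -0.106 with 1 array left out. Zcchc3 turned to -0.334 with single brains. The other interactions followed through the alternatives, 30 probe sets outside the induced set in all, kept their sign. These were chosen for small p-values on the same pools, so a kept sign was likely from the start. Other named genes were not followed. The replicate block gave 0 interaction calls and 65 of the averaged response, with 246 lower and 127 higher interactions at an unadjusted p under 0.05; S100a8 (adjusted p = 0.0743) and Gstm5 (0.0594) then missed the threshold of the averaged response. The median interaction of all probe sets was 0.125 when arrays were scaled to the median of values above 0 and -2.51 as deposited, against -0.0435, and list and gene values there are relative to it. A floor at the 10th percentile was not run, since that percentile was -139.1, below 0. The causes of these changes were not tested. Signals near the floor limit Aldh1a3, Ccna2, Esr1, Hgf, Il6, Cyp1b1 and the dim Gstm5 probe set.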

Other observations

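Single treated brains, which are no part of the pooled comparison, put 10 probe sets past the interaction threshold when they stood in for the treated ischemic pools. Gfpt2 was lower (-2.95, SE 0.21, limma adjusted p = 8.1e-05), as were Esr1 and 2 probe sets without a single gene name. Pkdcc (3.82), Plekho1 (3.87), Cyp1b1 (4.28), Gpr3 (3.01), Inhbb (1.67), an activin subunit, and Ifi30 (1.31), a lysosomal thiol reductase, were higher. Inhbb and Gpr3 were below the filter in the pooled comparison and met it through the single brains alone, so their calls follow from the filter and support nothing. Pkdcc and Plekho1 were at the floor in drug control and ischemic pools, and Cyp1b1 in drug control pools. Esr1 was at it in control pools and every single brain, and an unnamed probe set in control pools. Groups at the floor have no spread, so these calls too are a description only. For Plekho1 the single brains ran from 9.79 to 10.82, against a mean of 8.39 in treated ischemic pools, 6.77 in drug control and ischemic pools and 7.22 in control pools. Gpr3 ran from 9.03 to 9.81 in single brains and was at the floor, 6.77, in the treated ischemic pools. Every single brain thus lay above the mean of the treated ischemic pools for both genes. Single brains and treated ischemic pools 2 and 3 were deposited on other scales than the remaining arrays. With single brains as the treated group, every treated ischemic array was on another scale than every array of the other groups. The scale, the use of single brains and treated ischemia cannot be told apart there.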
